A study of Mus musculus with 12 samples.

Results

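Digestive enzyme and zymogen granule genes of pancreatic acinar cells were followed in islets cut from pancreas sections. The 10 genes were Amy1, Cpa1, Cpb1, 2210010C04Rik, Ctrb1, Pnlip, Clps, Cel, Sycn and Zg16. Every non-control probe carrying 1 of these symbols was taken whatever its signal, which gave 12 of the 41174 non-control probes on the array, for 10 of its 17026 named genes. Amy1 and 2210010C04Rik had 2 probes each and the other genes 1 each. A probe was tested where the islet channel was well above its local background on at least 4 of the 12 arrays, and 10 of the 12 probes, of 9 genes, met this. Of these 10, 8 were well above background on all 12 arrays, and Cel and Zg16 on arrays of both strains.

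The islets came from 6 NOD mice, an inbred strain that develops autoimmune diabetes, and from 6 NOD.B10 mice, which have the NOD background with the MHC region of another strain and do not become diabetic. All mice were female and 12 weeks old. Islets were taken from stained frozen sections with a laser, so acinar tissue touching an islet could enter a sample, and the labels word each sample as 1 mouse. Amplified islet RNA carried Cy5 and a universal mouse reference RNA carried Cy3 on the same 2-colour array, with no dye swap.

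Acinar cells make most of the exocrine pancreas. They store digestive enzymes in zymogen granules, mostly as inactive precursors, and release them into the ducts after a meal. Their enzyme genes are transcribed at very high rates under the PTF1 complex, which pairs the acinar factors PTF1A and RBPJL with a common E protein and binds an E-box next to a TC-box. Islets lie embedded in this tissue, and their endocrine cells make hormones in place of these enzymes.

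The islet label was checked against its defining genes. Ins2, an insulin gene, and Gcg, the glucagon gene, were well above background on all 12 arrays. Of 10 beta cell and 10 other endocrine markers, 4 and 2 were well above background on no array. Of 10 duct markers, 9 were well above background on no array and the other, Spp1, did not pass the test. Since islet markers were missed too, the duct count does not show that duct tissue was absent. Of the leukocyte markers, 9 of 9 tested were called higher in NOD, against 18.6% of all 3922 tested genes (limma, adjusted p under 0.05). A marker could pass the signal filter through the NOD arrays alone, so this count is not read as a test. Summed over all 11 leukocyte markers on the array, without that filter, Cy5 after background subtraction was 1576 to 11951 scanner units in NOD. In NOD.B10 the sum was 55.2 to 149. The islet channel as a whole was brighter in NOD, with 10.7 to 17.3% of spots well above background against 3.96 to 7.88% in NOD.B10, and these ranges do not overlap. In such samples the amount of acinar tissue, the RNA per acinar cell, the share of other tissue and the brightness of the array cannot be told apart.

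Promoters of the acinar genes are shown as a description. Whether shared regulation had a part in the joint movement of these genes from array to array was not tested. The RefSeq promoter table of mouse assembly GRCm38.p6 held 9 windows for 8 of the 10 genes, each running from 250 bases before to 50 after a transcription start, with a pair of starts for Amy1. Zg16 and Clps had no entry. One window is given for each enzyme class, an amylase, a trypsinogen, a carboxypeptidase and a lipase, 5′ to 3′ along the gene. Capitals mark the E-box CANNTG, and the TC-box core TGGGAA and TATAAA, each read on either strand.
Amy1, chr3:113574713-113575012, minus strand: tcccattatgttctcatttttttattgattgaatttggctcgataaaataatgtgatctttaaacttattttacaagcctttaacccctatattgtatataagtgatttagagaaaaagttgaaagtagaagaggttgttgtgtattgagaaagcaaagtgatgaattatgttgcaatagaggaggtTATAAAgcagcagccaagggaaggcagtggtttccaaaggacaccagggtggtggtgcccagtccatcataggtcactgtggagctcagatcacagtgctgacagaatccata
2210010C04Rik, chr6:41035460-41035759, minus strand: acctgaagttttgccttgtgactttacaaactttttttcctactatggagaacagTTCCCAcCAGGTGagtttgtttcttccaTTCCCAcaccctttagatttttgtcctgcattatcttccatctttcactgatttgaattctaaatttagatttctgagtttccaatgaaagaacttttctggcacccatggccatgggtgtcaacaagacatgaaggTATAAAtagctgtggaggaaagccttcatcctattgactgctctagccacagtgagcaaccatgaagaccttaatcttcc
Cpa1, chr6:30638968-30639267, plus strand: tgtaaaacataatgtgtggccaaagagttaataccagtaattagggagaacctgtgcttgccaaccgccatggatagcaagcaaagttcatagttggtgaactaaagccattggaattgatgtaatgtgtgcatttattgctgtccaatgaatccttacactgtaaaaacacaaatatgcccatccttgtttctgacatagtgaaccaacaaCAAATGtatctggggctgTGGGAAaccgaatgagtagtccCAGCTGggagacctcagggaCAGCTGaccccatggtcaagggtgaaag
Pnlip, chr19:58670115-58670414, plus strand: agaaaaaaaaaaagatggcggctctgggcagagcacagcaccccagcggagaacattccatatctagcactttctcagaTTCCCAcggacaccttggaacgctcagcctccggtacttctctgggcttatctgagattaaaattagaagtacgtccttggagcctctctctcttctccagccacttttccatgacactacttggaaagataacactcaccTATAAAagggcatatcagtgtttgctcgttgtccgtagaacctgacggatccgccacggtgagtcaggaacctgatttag
CANNTG occurred in 6 of the 9 windows, against 72.3% of all 32851 promoters of that length. TGGGAA on either strand occurred in 7 of 9, against 25.6%, and both motifs in 5 of 9, against 19%. The longer form TTTCCCA, which contains the core and so overlaps it, was in 3 of 9, against 8.06%. TATAAA on either strand was in 4 of 9, against 13.6%, and lay on the gene's strand in all 4. It began 30 bases before the start in Pnlip and 2210010C04Rik and 63 before it in the Amy1 window shown. In Cpb1 it lay downstream, 35 bases past the start. These matches describe the letters only.

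Signals are given on 2 scales. The net Cy5 signal is the median spot signal minus the local background, in scanner units, with no scaling between arrays. The normalised log2 ratio is Cy5 over Cy3 after background correction and an intensity-dependent (loess) adjustment within each array, so 0 is the level of the array's other probes of like brightness and not equal dye signal. The difference matters for these genes, since the reference RNA is rich in them: net Cy5 was only 0.0258 to 7.38% of net Cy3 over the tested probes and arrays. Reference signals varied little, with a coefficient of variation over the 12 arrays of 7.93 to 14.9%.

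On the normalised scale, 8 of the 10 tested acinar probes passed the test as lower in NOD and none as higher. Over all 5347 tested probes, 16.4% were called lower and 20% higher (limma, Benjamini-Hochberg adjusted p under 0.05). The median difference of the acinar probes, NOD minus NOD.B10, was -2.88 on the log2 scale, against 0.02 over all tested probes. The groups did not overlap, with every NOD array below every NOD.B10 array, for 3 acinar probes, both of Amy1 and that of Cel, against 6.7% of all tested probes, and all NOD arrays lay above for none, against 9.89%. On the unscaled net Cy5 signal, 0 of the 10 were called in either direction and 0 had an unadjusted limma p under 0.05, while the median of all tested probes moved to 1.97 and 4215 probes were called higher and 11 lower. Calls for the acinar genes are therefore lower relative to other probes of the array, and the raw islet signals of the strains overlapped for all 10.

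**Figure D1:**
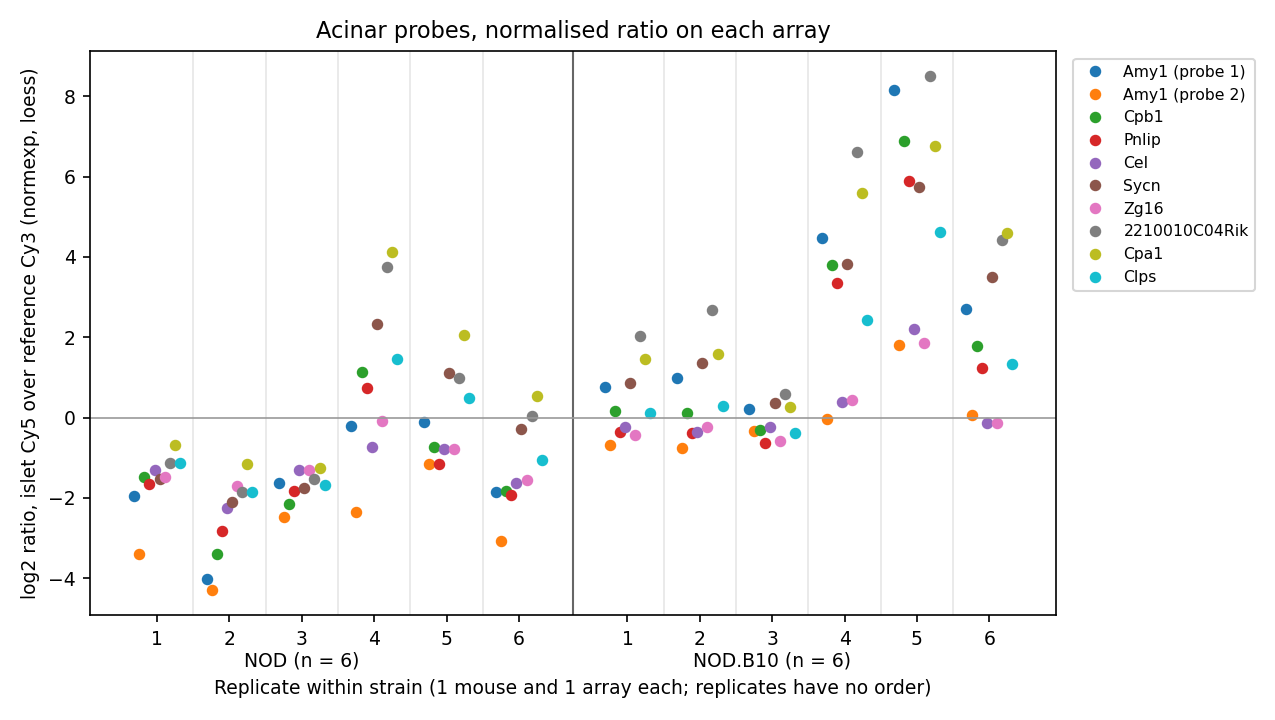
Normalised log2 ratio of islet Cy5 over reference Cy3 (y axis) for the 10 tested acinar probes (colours; Amy1 probe 1 is the brighter) on each of the 6 NOD and 6 NOD.B10 arrays (x axis), 1 point per probe and array. The 10 points rise and fall together from array to array, NOD.B10 replicate 5 holds the highest value of every probe, and NOD replicate 4 reaches the range of the NOD.B10 arrays for most.

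Amy1, the salivary and liver amylase gene, stands next to pancreatic amylase genes of similar sequence. Its probes may also read those genes, and its identity is uncertain here. The brighter probe (A_51_P383644) gave normalised log2 ratios from -4.01 (median -1.74) to -0.12 in NOD and from 0.20 (median 1.85) to 8.17 in NOD.B10. No NOD array reached a NOD.B10 array, and the NOD.B10 values themselves were widely spread. The difference was -4.51 ± 1.19 (SE, n = 6 per strain; limma adjusted p = 0.0107; exact 2-sided permutation p = 0.00216, the smallest 6 against 6 can give), the most negative of the 5347 tested probes. It stayed called when any 1 array was left out, from -5.05 to -3.46.

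The raw signal of the same probe told less of the strain. Net Cy5 ran from 92.0 (median 168) to 274 in NOD and from 67.5 (median 174) to 4208 in NOD.B10. The medians are nearly equal, and NOD.B10 replicate 5 (4208) and replicate 4 (573) stand above the other 10 arrays. The difference in log2 net Cy5 was -0.89 (exact 2-sided permutation p = 0.426).

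The other Amy1 probe (A_51_P383638) ran from -4.29 (median -2.78) to -1.16 in NOD and from -0.76 (median -0.18) to 1.81 in NOD.B10 as a log2 ratio. These groups did not overlap either, and the difference was -2.80 ± 0.51 (SE, n = 6 per strain; limma adjusted p = 0.00119; exact permutation p = 0.00216). Unscaled, this probe spanned 41.5 to 85.5 in NOD and 34.0 to 49.0 on 5 NOD.B10 arrays, with 242 on NOD.B10 replicate 5, and the log2 difference was 0.07 (exact permutation p = 0.955). On the other 11 arrays its Cy5 was 0.0334 to 0.0697% of Cy3. That lies near the level of the dimmest probes with a bright reference: over 411 such probes the 10th percentile of this share was 0.0474 to 0.0925% on the NOD arrays and 0.0338 to 0.0458% on the NOD.B10 arrays. A level of amylase RNA and a floor of the Cy5 channel cannot be told apart for this probe. The brighter Amy1 probe had 0.0720% on NOD replicate 2, under that array's 10th percentile of 0.0925%, so the same limit holds for its lowest ratio.

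The proteases of the set cut proteins from within or from the carboxyl end once they reach the gut. 2210010C04Rik, a trypsinogen gene next to the T cell receptor beta variable genes in the RefSeq table, has relatives of similar sequence, so its probe may read more than 1 trypsinogen. Its brighter probe (A_52_P448060) gave log2 ratios from -1.85 (median -0.55) to 3.74 in NOD and from 0.59 (median 3.54) to 8.49 in NOD.B10. NOD replicates 4 and 5 lay inside the NOD.B10 range and the other 4 NOD arrays below it. The difference was -4.09 ± 1.30 (SE, n = 6 per strain; limma adjusted p = 0.0264; exact permutation p = 0.0216), and 1 other probe of the 5347 was more negative. The call was lost without NOD replicate 1 (-3.86) or 2 (-3.71) and without NOD.B10 replicate 4 (-3.60) or 5 (-3.22).

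The net Cy5 signal of that trypsinogen probe ran from 90.0 (median 302) to 1744 in NOD and from 81.0 (median 365) to 4500 in NOD.B10. NOD replicate 4 had the second-highest raw signal of the 12 arrays, above NOD.B10 replicate 4 (1315). The log2 difference was -0.52 (exact permutation p = 0.654). The other probe of the gene (A_51_P414661) was well above background on no array, with net Cy5 between -1.0 and 6.5, and has no fold.

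Cpb1, the carboxypeptidase that removes basic residues, gave log2 ratios from -3.40 (median -1.66) to 1.14 in NOD and from -0.32 (median 0.97) to 6.89 in NOD.B10. Only NOD replicate 4 entered the NOD.B10 range. The difference was -3.48 ± 1.14 (SE, n = 6 per strain; limma adjusted p = 0.0304; exact permutation p = 0.0152). It no longer passed without NOD replicate 1, 2 or 6 or without NOD.B10 replicate 4, where it ran from -3.46 to -3.08. The unscaled islet signal of Cpb1 spanned 19.0 to 305 in NOD and 25.5 to 1776 in NOD.B10, and the strains overlapped (log2 difference -0.98; exact permutation p = 0.407).

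Cpa1, the carboxypeptidase that removes aromatic and branched residues, did not pass the test. Its log2 ratios ran from -1.26 (median -0.07) to 4.11 in NOD and from 0.26 (median 3.08) to 6.76 in NOD.B10, so 3 NOD arrays lay inside the NOD.B10 range. The difference was -2.77 ± 1.20 (SE, n = 6 per strain; limma adjusted p = 0.0882; exact permutation p = 0.0758). On the raw scale the medians stood the other way, with net Cy5 from 82.5 (median 364.5) to 1744 in NOD and from 54.0 (median 282.5) to 1938 in NOD.B10.

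Ctrb1, a chymotrypsinogen gene, was well above background on 1 array only, NOD.B10 replicate 5, and was not tested. Net signals lay between -1.0 and 10.0 in NOD and between 1.0 and 14.0 in NOD.B10. With signals this near background no fold is given.

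The lipases split dietary fats. Pnlip, pancreatic triglyceride lipase, gave log2 ratios from -2.83 (median -1.75) to 0.75 in NOD and from -0.64 (median 0.44) to 5.88 in NOD.B10. As for Cpb1, only NOD replicate 4 entered the NOD.B10 range. The difference was -2.95 ± 1.03 (SE, n = 6 per strain; limma adjusted p = 0.0390; exact permutation p = 0.0195). This call was lost in 7 of the 12 fits with 1 array left out (NOD replicates 1, 2, 3 and 6 and NOD.B10 replicates 4, 5 and 6), with differences down to -2.08. Net Cy5 ran from 18.0 (median 31.2) to 207 in NOD and from 8.5 (median 43.5) to 1061 in NOD.B10.

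Clps, colipase, the cofactor that anchors Pnlip to fat droplets, did not pass in limma. Its log2 ratios were -1.85 (median -1.09) to 1.45 in NOD and -0.38 (median 0.82) to 4.61 in NOD.B10, with NOD replicates 4 and 5 inside the NOD.B10 range. The difference was -2.03 ± 0.82 (SE, n = 6 per strain; limma adjusted p = 0.0675), and the exact permutation p was 0.0498 with no adjustment. Its raw signals again stood the other way, with a median net Cy5 of 126 in NOD and 65.2 in NOD.B10.

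Cel, the bile-salt dependent lipase that also splits cholesterol esters, was dim, well above background on 5 NOD and 4 NOD.B10 arrays. Its log2 ratios were -2.26 (median -1.31) to -0.74 in NOD and -0.37 (median -0.19) to 2.21 in NOD.B10, and the groups did not overlap. The difference was -1.61 ± 0.41 (SE, n = 6 per strain; limma adjusted p = 0.00891; exact permutation p = 0.00216), and it stayed called when any 1 array was left out, from -1.74 to -1.22. Unscaled, its median signal stood at 12.8 in each strain.

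Granule proteins are stored and released with the enzymes without digesting anything. Sycn, syncollin, lines the inside of the granule membrane. Its log2 ratios ran from -2.11 (median -0.91) to 2.34 in NOD and from 0.37 (median 2.42) to 5.75 in NOD.B10, and NOD replicates 4 and 5 lay inside the NOD.B10 range. The difference was -2.98 ± 0.98 (SE, n = 6 per strain; limma adjusted p = 0.0304; exact permutation p = 0.026), lost in 7 of the 12 fits with 1 array left out (the same arrays as for Pnlip), with differences down to -2.35. Unscaled, the median signal of Sycn stood at 174 in NOD and 189 in NOD.B10.

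Zg16, a lectin of the granule matrix, was well above background on 6 NOD and 4 NOD.B10 arrays. Its log2 ratios were -1.69 (median -1.39) to -0.09 in NOD and -0.58 (median -0.19) to 1.86 in NOD.B10, and only NOD replicate 4 entered the NOD.B10 range. The difference was -1.30 ± 0.40 (SE, n = 6 per strain; limma adjusted p = 0.0220; exact permutation p = 0.013), lost without NOD replicate 2 (-1.19). Unscaled, it spanned 7.0 to 60.0 in NOD (median 16) and 1.0 to 113 in NOD.B10 (median 9.75), so the raw signal ran the other way (log2 difference 0.55; exact permutation p = 0.626).

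**Figure D2:**
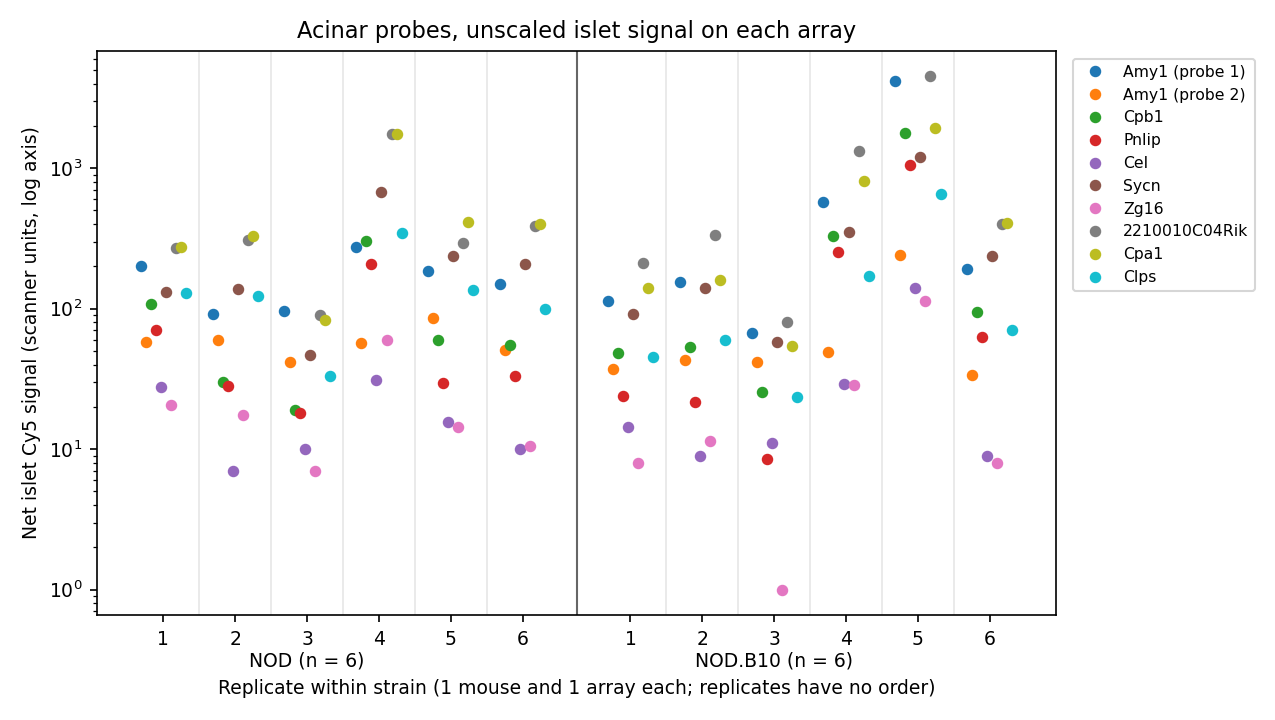
Net islet Cy5 signal (y axis, scanner units, log axis) for the 10 tested acinar probes (colours) on each of the 6 NOD and 6 NOD.B10 arrays (x axis), with no scaling between arrays. The strains overlap for every probe. NOD.B10 replicate 5 (Amy1 at 4208), NOD.B10 replicate 4 and NOD replicate 4 (Cpa1 at 1744) stand above the rest for all but the dimmer Amy1 probe.

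The number of called acinar probes depended on single mice. It fell from 8 to 3 without NOD replicate 2, to 4 without NOD replicate 1 or NOD.B10 replicate 4, and to 5 without NOD replicate 6 or NOD.B10 replicate 5. It was 10 without NOD replicate 4 or NOD.B10 replicate 3. An alternative chosen after the data were seen left out the array of highest acinar signal in each strain, NOD replicate 4 and NOD.B10 replicate 5. NOD.B10 replicate 4, second of all arrays as a ratio for 9 probes, was kept. With this, 9 of 10 were called and differences ran from -3.96 to -1.16, beside 827 probes called higher and 687 lower in all.

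The strains met on slides 2 and 3, with 2 mice of each strain per slide. All 10 tested acinar probes were lower in NOD on both slides, from -3.53 to -0.69 on slide 2 and from -6.43 to -2.03 on slide 3. With 2 mice per strain only the dimmer Amy1 probe passed on slide 2 (-2.06; limma adjusted p = 0.0460), where 99 probes were called in all. None passed on slide 3, where 3 probes were called. At an unadjusted limma p under 0.05, 3 of 10 acinar probes were lower on slide 2 and all 10 on slide 3. Of all 5347 tested probes, 445 were lower and 519 higher at that level on slide 2, and 312 and 459 on slide 3. With slide as a fixed term 6 of 10 were called, among 937 probes. Slide 1 held NOD mice only and slide 4 NOD.B10 mice only.

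The scaling decided whether a strain difference was called. With each array centred on its median in place of the loess adjustment, 0 of 10 acinar probes were called and 0 had an unadjusted limma p under 0.05, with differences from -0.77 (Amy1) to 0.29 (Clps), the median of all tested probes was 0.43, and 2581 probes were called higher and 1 lower. Relative to that median all 10 were negative, from -1.20 to -0.14. With the net Cy5 over net Cy3 ratio and no adjustment, an alternative chosen after the data were seen, 0 were called (0 at an unadjusted limma p under 0.05). The median of all tested probes was 1.91, and 4118 were called higher and 6 lower. Relative to that median the acinar probes ran from -2.94 to -1.42. The scanner's own processed ratio called 8, beside 1576 probes higher and 410 lower and a median of all tested probes of 0.55. Cy5 alone after quantile normalisation called 4, both Amy1 probes, Cpb1 and Sycn, beside 1179 higher and 366 lower.

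**Figure D3:**
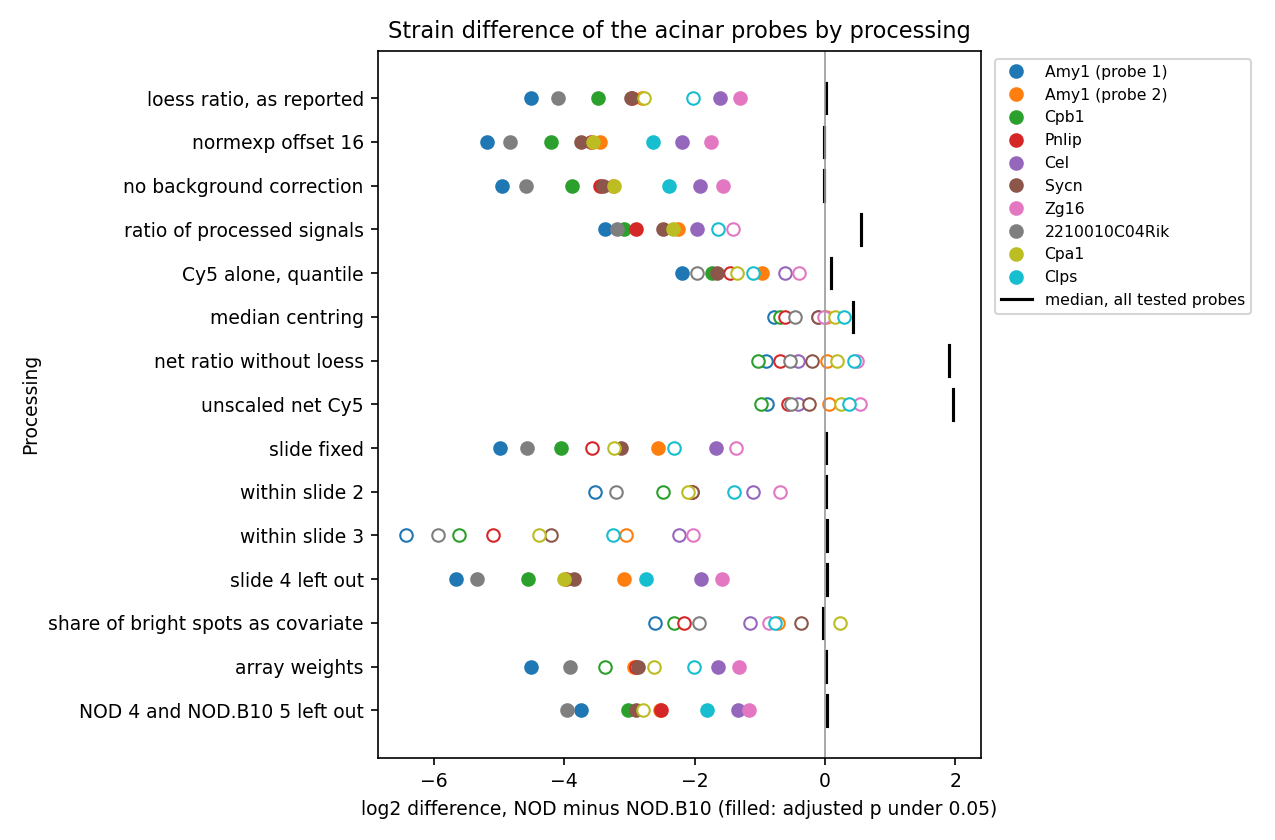
Log2 difference NOD minus NOD.B10 (x axis) of the 10 tested acinar probes (colours) under each way of processing the arrays (y axis), with filled points for an adjusted limma p under 0.05 and a black bar at the median of all tested probes. All 10 are negative in the loess ratio (-4.51 to -1.30), while under median centring and without scaling they lie around 0, to the left of the bar.

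The share of spots well above background in Cy5 did not overlap between strains, so strain and array brightness cannot be told apart. With that share as a covariate 0 of 10 acinar probes were called (0 at an unadjusted limma p under 0.05), with 5 probes called in all, and differences ran from -2.60 (Amy1) to 0.24 (Cpa1). Probes that, like these, had a Cy5 signal under 1% of the reference were called lower more often than others: 698 of 1691 such probes (41.3%) were lower and 8.22% higher, against 4.87% lower of the 3656 remaining probes. The median difference of such probes was -0.28. Of those 1691 probes, 125 were more negative than Zg16, 74 more negative than Cel, 37 more negative than Clps and fewer than 10 more negative than each of the other 7 acinar probes. The part of brightness in the acinar difference was not tested beyond this.

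The acinar genes differed more between mice of 1 strain than most probes did. Their standard deviation was 0.57 to 2.12 log2 units in NOD and 0.91 to 3.03 in NOD.B10, against medians of 0.29 and 0.18 over all tested probes. Each acinar probe varied more than at least 85.3% of tested probes in NOD and 97.2% in NOD.B10. For 9 of the 10 the larger spread was in NOD.B10.

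Mostly the same mice were high for all of them, while the lowest NOD mouse depended on the scale. NOD.B10 replicate 5 was highest of the 12 arrays for 10 of 10 probes, both as a ratio and as net Cy5, and NOD.B10 replicate 4 was second as a ratio for 9. Among NOD arrays, as a ratio, replicate 4 was highest for 8 probes and replicate 5 for 2, and NOD replicate 2 was lowest for 9. As net Cy5, NOD replicate 3 was the lowest NOD array for all but the brighter Amy1 probe and Cel. Cpa1, for example, had 82.5 on NOD replicate 3 and 330.5 on NOD replicate 2. As net Cy5, NOD replicate 4 was second of all 12 for 6 probes. The 21 acinar marker genes on the array, which include the 10, took a summed 0.110% (NOD replicate 3) to 1.34% (NOD replicate 4) of all net Cy5 in NOD and 0.149% (NOD.B10 replicate 3) to 4.93% (NOD.B10 replicate 5) in NOD.B10, with medians of 0.234 and 0.601%. On the unscaled sum the medians were 1714 in NOD and 1448 in NOD.B10.

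Across the 12 arrays, with strain means removed, Pearson's r between pairs of acinar probes was 0.69 to 0.99 (median 0.93, 45 pairs). Spearman's rho gave a median of 0.91. Within NOD alone the median r was 0.89 and within NOD.B10 alone 0.96, over 6 arrays each. Without NOD replicate 4 and NOD.B10 replicate 5 it was 0.87, and the lowest pair 0.49. These points share arrays, amplification and normalisation, and are given as a description. Both Amy1 probes correlated at 0.85.

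Genes that followed the acinar probes from mouse to mouse were mostly other acinar genes. Of 3913 other genes, 7 had an r above 0.9 with the mean of the acinar probes and 10 above 0.8, while the median gene had 0.01. Among the highest were Prss3, a trypsinogen (0.998), Cela3b, an elastase (0.96), Reg1, a secreted lectin of acinar cells (0.96), Try5, a trypsinogen (0.93), Rnase1, a ribonuclease (0.92), and Serpini2, a pancreatic serpin (0.92). Then came Usp11, a deubiquitinase (0.88), Reg2, a relative of Reg1 (0.86), and Rab5a, an endosomal GTPase (0.82). Neither Usp11 nor Rab5a rose well above background on any NOD.B10 array.

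Other acinar enzymes moved with the set where they could be measured. Of 26 listed genes, 14 had a probe and 6 were tested, of which 3 were lower in NOD and none higher, with a median of -1.96, against 18.2% lower and 18.6% higher over 3922 genes with a median of -0.01. Pla2g1b, a phospholipase, fell by 1.17 on the log2 scale (limma adjusted p = 0.00414), Prss3 fell by 2.49 (0.0365) and Try5 fell by 1.40 (0.0460). Cela3b (-2.32) and Rnase1 (-1.85) did not pass, although a dimmer Rnase1 probe did (-2.14; limma adjusted p = 0.0163). Trypsinogen probes may read several copies. Unscaled, the median signals of all 3 called enzymes ran the other way from their ratios, at 70.5 in NOD and 59.2 in NOD.B10 for Prss3, 19.2 and 12.5 for Pla2g1b, and 9.5 and 7.5 for Try5. Try5 was well above background on 3 arrays of each strain only.

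Zymogen granule and acinar secretory genes were mostly too dim: 25 of 26 listed genes had a probe, 4 were tested and 2 were called lower, with a median of -0.61, against 18.2% lower and a median of -0.01 over all genes. Both calls rest on signals near background. Serpini2 (-1.06; limma adjusted p = 0.0211) was well above background on 1 NOD and 3 NOD.B10 arrays. Gatm, a creatine synthesis enzyme abundant in acinar cells, passed the filter through 4 NOD arrays and no NOD.B10 array, the strain in which its ratio was higher, so its call is not read as a fall. Of the PTF1 factors, Rbpjl did not pass (0.22; limma adjusted p = 0.368), and its r with the acinar mean was 0.16. Ptf1a was well above background on no array. Of the Reg family, 3 of 7 were tested and 1 was called lower, against the same 18.2%. This was Reg3b, a secreted antimicrobial lectin (-1.43; limma adjusted p = 0.000424), which was well above background on 3 NOD and 1 NOD.B10 arrays, with median unscaled signals of 6.5 in NOD and 3.5 in NOD.B10, the other way from its ratio, while Reg1 (-3.31) and Reg2 (-0.11) did not pass. The count for the other acinar enzymes fell to 1 without NOD replicate 1, 2, 3 or 6 or NOD.B10 replicate 4 or 6, and rose to 5 without NOD replicate 4. That of the granule genes fell to 1 without NOD replicate 2, and that of the Reg family rose to 2 without NOD replicate 4 or NOD.B10 replicate 3.

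Salivary gland genes, which share the secretory program but not the pancreas, were read beside the set because Amy1 is also a salivary gene. All 9 tested of the 15 listed were called lower in NOD, with a median of -1.67. Over all genes 18.2% were called lower, and 41.3% of the probes with Cy5 under 1% of the reference, the class of these genes. The smallest p values were those of Prh1, a proline-rich protein (-1.47; limma adjusted p = 0.000311), Pip, the prolactin-induced protein (-2.68), Mucl2, a mucin-like protein (-1.98), and Bpifa2, a parotid secretory protein (-2.35). Prh1 was well above background on 2 NOD and 4 NOD.B10 arrays only. Unscaled, the medians of the other 3 ran the other way from their ratios. They were 52.5 in NOD and 45.5 in NOD.B10 for Pip, 57.5 and 29.2 for Mucl2, and 55.2 and 40 for Bpifa2. Their median shares of the reference lay near that of the dimmer Amy1 probe, so the same floor limit holds. From mouse to mouse, with strain means removed, their r with the acinar mean was -0.34 to 0.53 (median 0.11), against 0.77 to 0.998 for the 6 other acinar enzymes. Their spread in NOD.B10 was 0.22 to 1.54 log2 units. Median Cy5 was 0.0378 to 0.657% of the reference, so they too were dim in the islet channel beside a bright reference. The same held for the tested acinar probes, with medians from 0.0490% (dimmer Amy1 probe) to 0.714% (Cpa1).

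**Figure D4:**
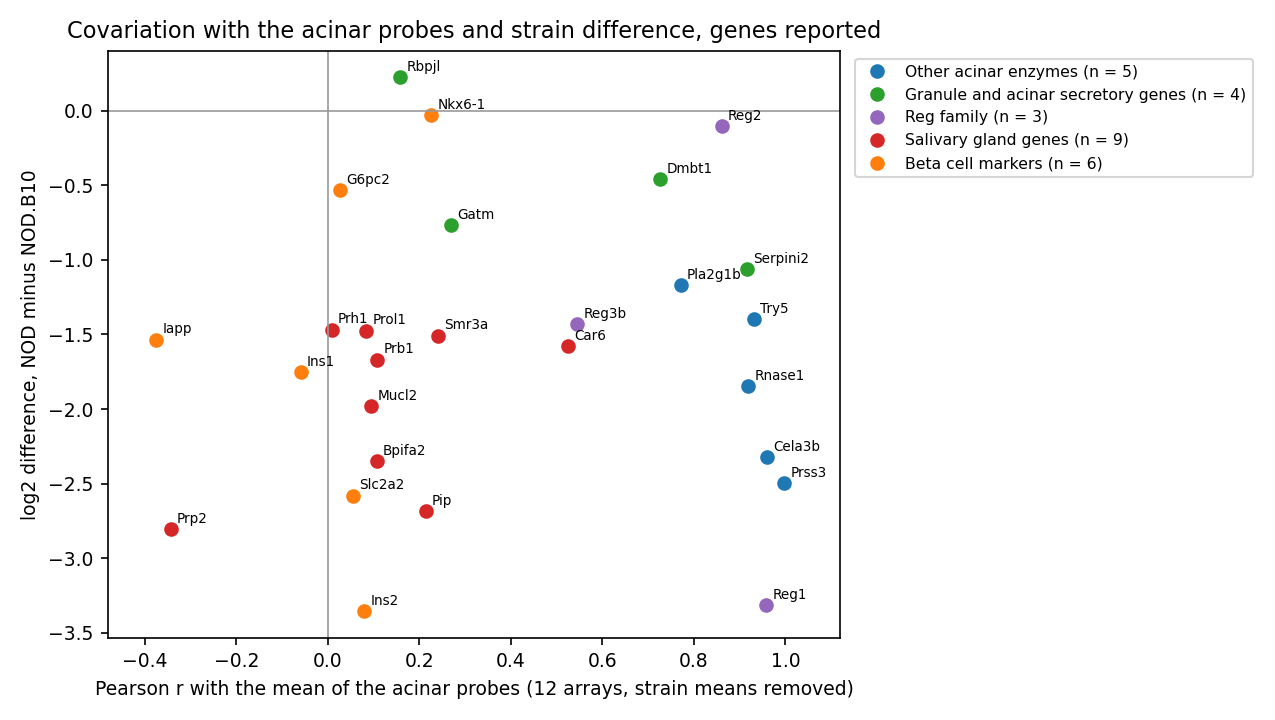
Pearson's r of each gene with the mean of the acinar probes over 12 arrays with strain means removed (x axis) against its log2 difference NOD minus NOD.B10 (y axis), 1 point per tested gene reported here from 5 lists (colours). Other acinar enzymes lie at an r of 0.77 or more and salivary gland genes between -0.34 and 0.53, while both lie below 0 in the strain difference.

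Of the islet's own landmarks, Ins2 fell by 3.35 on the log2 scale in NOD (limma adjusted p = 0.000707) and Gcg fell by 1.19 (0.0278), and their r with the acinar mean was 0.08 and 0.64. Unscaled, the median signal of Gcg ran the other way, at 26896 in NOD and 10304 in NOD.B10, and that of Ins2 stood at 12062 and 13478. Of the tested markers, 3 of 6 of beta cells and 2 of 7 of other endocrine cells were called lower, against 18.2% of all genes. The part of the share of endocrine or leukocyte tissue in the acinar difference was not tested.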

How the data were processed

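Arrays of 6 NOD and 6 NOD.B10 mice were read as groups from the labels. The authors deposited 1 scanner file per array, whose intensity columns (median spot signal, local background) are not normalised; per the file headers the software was Feature Extraction 10.5.1.1. Background-subtracted, dye-normalised intensities and their log10 ratio (red over green) stand beside them, also from the authors' software. The deposited series table holds values equal to the log2 of that ratio for 100% of the 40929 probes with 1 spot (tolerance 0.01), and the labels do not state its scale. Its column medians run from -0.285 to -0.062, and it was not centred. Other deposited columns are quality marks set by the scanner software per the file headers.

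Median signals were used in place of planned means, which the files used here do not hold. Background was corrected with normexp at an offset of 50, followed by loess on every array, with control spots at weight 0, in limma 3.58.1 under R 4.3.3. Spots of a probe were averaged, outlier spots being left out where another remained. No spot was saturated. Strains were compared with lmFit and eBayes over 5347 probes, with Benjamini-Hochberg adjustment and a threshold of 0.05. The fit was tested on simulated data. Exact permutation tests ran over all 924 assignments of the arrays, without adjustment over the genes. Lists were read with the brightest probe of each gene from the same fit. Probe names were updated through RefSeq transcripts of GRCm38.p6, which gave 24387 of 41174 probes a symbol. The number of arrays and the brightness of a probe limit the precision. P-values measure the spread between these samples.

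The genes, lists and tests were chosen with earlier results of these data known. The genes named are the 10 acinar genes, up to 4 passing members of each list with the smallest p (2 where none passed), Ins2, Gcg, and the 10 genes most like the acinar mean, with others named after their values were seen where a count is small. A gene that the rule names is not reported here. Alternatives varied the scaling, background correction, filter, probe choice, slide, array weights, array brightness, replicate block and each array left out. Replicate numbers do not pair the mice: the correlation of same-numbered arrays ran from -0.15 to 0.23, and 2 of 12 arrays correlated best with their own number. Scan day differed for slide 4 only, so it was not fitted.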

Additional observations from a re-analysis of the deposited data

Results flagged for a closer look

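In 24 groups of 6 values (12 probes in 2 strains), 2 held an array whose gap to its nearest neighbour exceeded Dixon's 95% limit for a group of this size, and chance gives about 1 in 20. For the dimmer Amy1 probe, NOD.B10 replicate 5 had a log2 ratio of 1.81, and the next NOD.B10 array 0.06. For Cel the same array had 2.21 and the next 0.38. Without that array the dimmer Amy1 probe stood at -2.44 and Cel at -1.22, both still called lower in NOD by limma.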

How the results depend on the processing

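Over the alternatives tried, the direction of the 9 tested genes, each read by its brightest probe, reversed in 9 cases. The dimmer Amy1 probe, not among these, stood at 0.01 with median centring, 0.07 with unscaled net Cy5 and 0.03 with the net ratio without loess. Median centring gave Cpa1 0.15 and Clps 0.29, unscaled net Cy5 gave Zg16 0.55, Cpa1 0.25 and Clps 0.38, brightness as a covariate gave Cpa1 0.24, and the net ratio without loess, chosen after seeing the data, gave Zg16 0.49, Cpa1 0.18 and Clps 0.44. The first, second and last of these subtract no intensity trend, and the median of all tested probes was 0.43, 1.97 and 1.91 with them. The cause was not tested. Counts called lower in NOD were 8 acinar probes, 3 other acinar enzymes, 2 granule genes, 1 Reg gene and 9 salivary genes, beside 1947 probes called in either direction. All 5 counts were 0 under median centring, unscaled net Cy5 (4226 probes called), the net ratio (4124), brightness as a covariate (5) and within slide 3 (3). Within slide 2 they were 1, 0, 0, 0 and 4 (99 probes). Cy5 alone gave 4, 0, 0 and 0 for the first 4. Without a filter there were 4 acinar probes (both of Amy1, Cel and Ctrb1), 1 other enzyme and 1 granule gene, and with signal on all 12 arrays 444 probes, 1 other enzyme, 0 granule and 0 Reg genes. Slide as a fixed term gave 937 probes, 1 enzyme and 1 granule gene, the processed ratio 1 and 1, and array weights 1 enzyme. An offset of 16 gave 6 enzymes and 2 Reg genes, no background correction 2 Reg genes, slide 4 left out 2 Reg genes, and NOD replicate 4 and NOD.B10 replicate 5 left out 5 enzymes and 2 Reg genes, the last pair chosen after seeing the data. The acinar probes called were 10 with an offset of 16, without background correction and with slide 4 left out. They were 9 with that pair left out and 6 with array weights or slide as a fixed term. With signal on all 12 arrays they were 6 of 8 tested. With the replicate block, whose numbers do not pair the mice, there were 10 acinar probes, 6 enzymes and 2 Reg genes among 1657 probes called. Leaving out 1 array at a time gave 3 to 10 acinar probes, 1 to 5 enzymes, 1 to 3 granule genes, 1 to 2 Reg genes, 8 to 9 salivary genes and 1586 to 2185 probes called. Low Cy5 signal over background limits Cel, Zg16 and Ctrb1 and the dimmer Amy1 probe most.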
